A study of Mus musculus with 8 samples.

Results

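The 10 genes described here build the junctions that couple heart cells: the connexins Gja1, Gja4, Gja5, Gjc1 and Gjd3, and the intercalated disc partners Tjp1, Cdh2, Dsp, Pkp2 and Jup. They were chosen by name, with earlier results of these data known, and found by Ensembl identifier. All 10 were present among the 53465 genes of the table. Their RNA was measured in embryonic mouse ventricles (day 15.5), with 4 libraries from wild-type (WT) hearts and 4 from hearts labelled Nrg-1flox;Cdh5-CreERT2, called Flox-labelled libraries from here on. In the latter line the Cdh5 driver, which is active in endothelial cells, expresses a Cre recombinase that tamoxifen switches on, and the floxed gene encodes neuregulin-1, a growth factor that endocardial and endothelial cells send to the myocardium. Each replicate was 1 ventricle per the study's design text, and the labels give neither the day of tamoxifen nor whether WT embryos carried Cre, a floxed allele or received the drug. Nothing states that replicates came from separate embryos, so p-values measure the spread between these samples.

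Connexins assemble as hexamers in the plasma membrane, and facing hexamers of neighbouring cells dock into gap junction channels that pass ions and small molecules. Gja1 (connexin 43) is the main connexin of working ventricular myocardium. Gja5 (connexin 40) is found in trabeculae, in the conduction system that derives from them, in atria and in arterial endothelium. Gja4 (connexin 37) is an endothelial connexin, Gjc1 (connexin 45) is present in early myocardium, conduction tissue and vascular smooth muscle, and Gjd3 (connexin 30.2) is known from the atrioventricular node of the mouse. At the intercalated disc, N-cadherin (Cdh2) joins cells through adherens junctions, desmoplakin (Dsp), plakophilin-2 (Pkp2) and plakoglobin (Jup) build desmosomes, and the scaffold ZO-1 (Tjp1) binds connexin 43.

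Each library held between 16761763 and 24144272 expected counts in total, fewest in Flox-labelled library 4. The targeted gene was not lower in the Flox-labelled libraries. WT libraries 1 to 4 gave 5.46, 4.64, 4.08 and 5.31 for Nrg1 in CPM, counts scaled to a common library size, and Flox-labelled libraries 1 to 4 gave 6.82, 6.33, 6.16 and 5.36 CPM, a log2 fold change of 0.34 (unadjusted p = 0.0138, edgeR FDR 0.311), with 3 of the 4 Flox-labelled values above all WT values. A gene-level count includes exons outside the floxed sequence and cells that the driver does not reach. Whether either bears on the Nrg1 values was not tested, and a loss of Nrg1 was not seen in these counts. Directions below are therefore those of the Flox-labelled libraries. Ventricular muscle genes were abundant, with Myl2 between 4632 and 5302 CPM, while the liver gene Alb did not exceed 1.07 CPM. Sex-linked transcripts went against 1 heart per library, since Xist, which male cells do not express, was at 103 to 327 CPM in 7 of the 8 libraries beside Y-linked RNA, and near 0 only in WT library 4 (0.176 CPM). How this came about was not tested. The sum of 4 Y-linked genes was 69.3 to 171 CPM in WT and 42.9 to 120 CPM in Flox-labelled libraries, with the highest value of each group in its library 4, where Xist was lowest. All 4 had log2 fold changes below 0, and 3 had an unadjusted p below 0.05 in edgeR's test (5.41% of tested genes were lower at that level). Xist was at 0.176 to 206 CPM in WT and 103 to 327 CPM in Flox-labelled libraries (log2 fold change 1.03, edgeR FDR 0.651). Of its Flox-labelled values, 3 were above all WT values. Sex-linked levels thus went partly with the group, and their part in the differences below was not tested.

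To ask whether the junction genes differed between the groups, edgeR's quasi-likelihood test was fitted across 15388 genes, and p-values were adjusted over all of them to a false discovery rate (FDR). None of the members passed FDR 0.05. The test could be made for 9 of the 10, since Gjd3 was removed by the filter on low counts, and 0 of 9 were called, against 0.526% of all tested genes (0.312% higher and 0.214% lower). DESeq2, limma voom and the likelihood ratio test also called 0 of 9. At an unadjusted p below 0.05, 3 of 9 members differed (Gja5, lower, and Cdh2 and Pkp2, higher), against 10.5% of tested genes (5.41% lower and 5.13% higher). Limma voom gave the same 3 at that level, the likelihood ratio test 2 (Gja5 and Pkp2) and DESeq2 2 (Cdh2 and Pkp2). Absolute log2 fold changes of the members ranged from 0.01 to 0.19, and 7 of 9 were below 0 (50.6% of tested genes were). The median over the members was -0.03, and that over all tested genes was -0.0012.

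**Figure D1:**
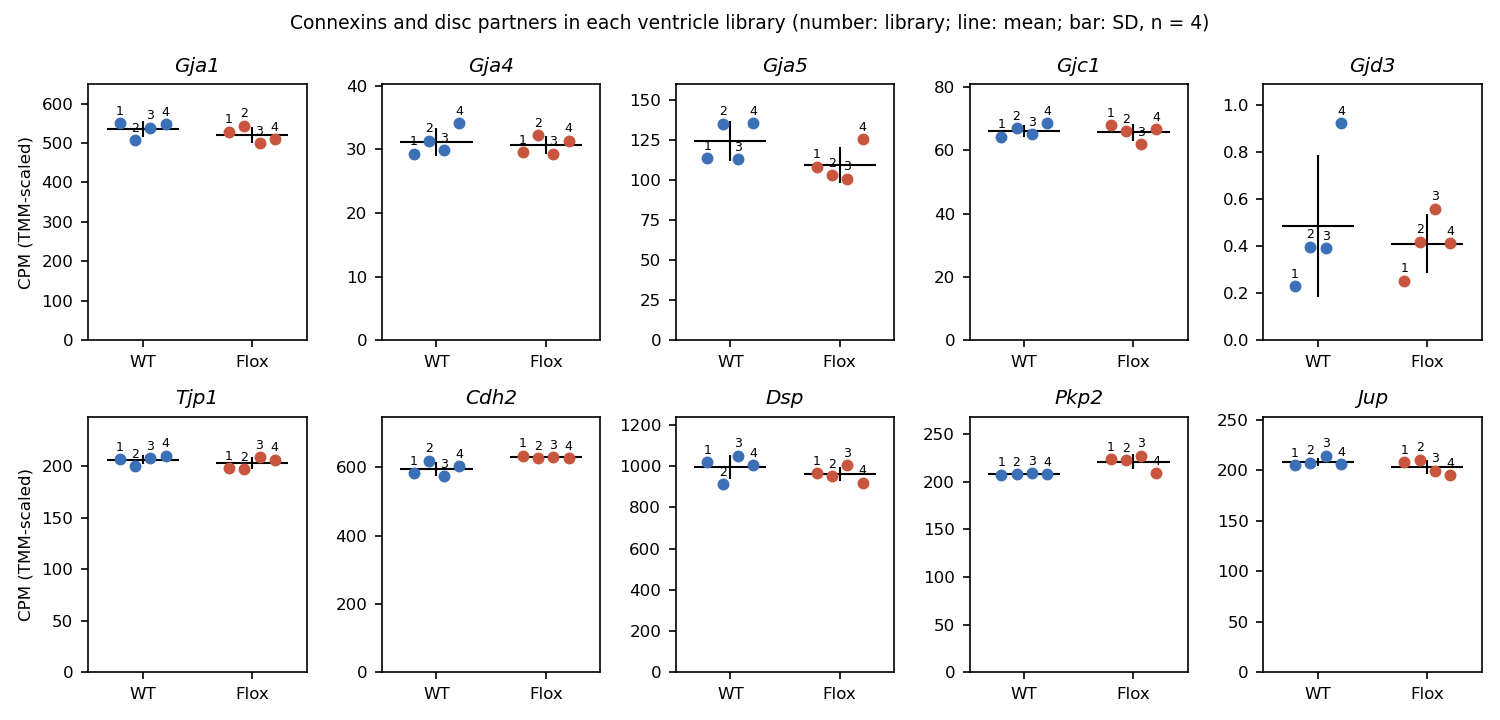
Level of each of the 10 genes in CPM (vertical axis, starting at 0) in the 4 WT (blue) and 4 Flox-labelled (red) libraries, where numbers give the library, horizontal lines the mean and vertical bars the SD. Groups overlap for every gene except Cdh2 and Pkp2, and 3 of the 4 Flox-labelled Gja5 values lie below the lowest WT value.

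Gja5 had the largest absolute log2 fold change of the 9 tested members. WT libraries 1 to 4 gave 113.8, 135.3, 113.1 and 135.5 CPM, and Flox-labelled libraries 1 to 4 gave 108.4, 103.2, 100.9 and 125.8 CPM. Thus 3 of the 4 Flox-labelled values lay below all WT values, while library 4 lay within the WT range. Means were 124.4 ± 12.7 CPM for WT and 109.6 ± 11.3 CPM for Flox-labelled libraries (SD, n = 4 each). The log2 fold change of -0.19 (SE 0.0755, 95% confidence interval -0.35 to -0.02) gave an unadjusted p of 0.0287 and did not pass over all genes (edgeR FDR 0.403). Without a filter on low counts, where 338 of 29350 genes were called, Gja5 passed (FDR 0.0471). Without Flox-labelled library 4 the log2 fold change was -0.26 (FDR 0.0997), and in a fit that includes the Y-linked level it was -0.12 (FDR 0.707). DESeq2 gave -0.18 (FDR 0.750), and edgeR with the replicate number as a block gave -0.185 (FDR 0.150). The values of Gja5 varied more within groups than those of the other tested connexins, with a coefficient of variation (CV) of 10.2% in WT and 10.3% in Flox-labelled libraries, against a counting error of 1.89% in WT. Gja5 (ENSMUSG00000057123) lies on chromosome 3 from 96904693 to 97077416 of GRCm38, plus strand, and 165 of its exonic bases are shared with Gpr89 on the minus strand. Its expected counts were not whole in any library, so some of its reads were divided with another gene. The strand setting of the counting is not given in the sources used here, so reads from the bases shared with Gpr89 cannot be told apart.

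Markers of the places where Gja5 is made were set beside it. These lists, like the others below, were chosen with earlier results of these data known. Their counts beside the shares of all tested genes are therefore a description and not an independent test. Of 8 trabecular and conduction genes 7 were tested and 0 called (0.526% of all tested genes were). Their median log2 fold change was -0.29, with 6 of 7 below 0, against 50.6% of all tested genes. At an unadjusted p below 0.05, 4 were lower and 1 higher, against 5.41% and 5.13% of all tested genes. Nppa, the pacemaker channel gene Hcn4, the trabecular growth factor gene Bmp10 and the guidance cue gene Slit2 gave -0.17 (FDR 0.684), -0.29 (FDR 0.0941), -0.55 (FDR 0.0606) and -0.57 (FDR 0.0720). Cpne5 gave -0.41 (FDR 0.0620) and Irx2 -0.02 (FDR 0.961). Irx1 went the other way (0.15, edgeR unadjusted p = 0.0454, FDR 0.462). The summed level of the 8, mostly that of the natriuretic peptide gene Nppa, was 1876 to 2781 CPM in WT and 1720 to 2503 CPM in Flox-labelled libraries. Library 4 was the highest of its group both in this sum and in Gja5. None of these genes was at 0 in all libraries, and the conduction gene Cntn2 was lowest, between 0.185 and 1.10 CPM. Of 8 atrial genes, 8 were below 0 and 1 was called lower, against 0.214% of all tested genes. It was Kcnj3, a potassium channel gene (-0.46, FDR 0.0261, called in 12 of 19 alternatives). Sln, Myl4, Myl7 and Nr2f2 gave -0.41, -0.01, -0.13 and -0.10, none passing, and the atrial sum was 1603 to 1828 CPM in WT and 1599 to 1754 CPM in Flox-labelled libraries. That sum was mostly Myl4 and Myl7, with WT means of 1323 and 282 CPM, while the WT mean of Sln was 7.64 CPM. Of 8 arterial endothelial genes, 5 were below 0 and 1 was called lower, against 0.214% of all tested genes. It was Cxcr4, a chemokine receptor (-0.38, FDR 0.0454, called in 7 of 19 alternatives). The arterial sums were 487 to 519 CPM in WT and 466 to 517 CPM in Flox-labelled libraries. Sox17, Dll4, Hey1 and Efnb2 of that list had log2 fold changes of 0.15, -0.29, -0.30 and -0.07, none passing. In bulk tissue, fewer cells of a type and less RNA per cell cannot be told apart, and the part of these markers in the Gja5 difference was not tested.

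**Figure D2:**
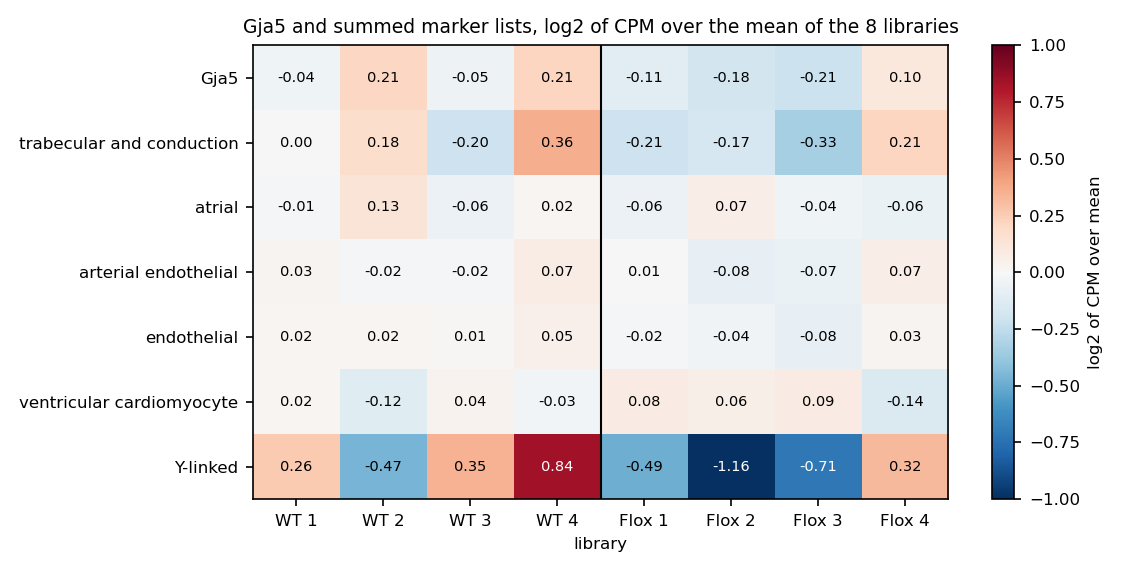
Gja5 and summed marker lists (rows) in each library (columns), as log2 of the CPM over the mean of the 8 libraries. Gja5 is above its mean in WT libraries 2 and 4 (0.21 in both) and Flox-labelled library 4 (0.10), and the trabecular and conduction sum is above its mean in the same libraries and at 0.00 in WT library 1. The colour scale ends at -1 and 1, past which lies 1 value (Y-linked, -1.16).

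For a view of the sequence at the start of the connexin genes, RefSeq promoter windows (GRCm38.p6, 250 bases before to 50 after the start) were read, which held 6 of the 10 members. Those of Gja5 (chr3:97032152-97032451, plus strand), Gja1 (chr10:56377050-56377349, plus strand) and Gja4 (chr4:127313990-127314289, minus strand) are shown because the comparison turns on these genes. The Gja5 window lies inside the span of the gene given above, since 1 of its 3 GENCODE transcripts begins far upstream at 96904693. The other 2 begin within 50 bases of the RefSeq start, the nearest of them 14 bases from it. The nearest GENCODE start of Gja1 is 30 bases after the RefSeq start, and that of Gja4 is the same base. Capitals mark matches, on either strand, to 4 motifs of factors known to act on cardiac or vascular genes: AAGTG, the core of NKX2-5 sites, GGTGTG of T-box factors, AGATAA of the zinc finger factors that include Gata4, and CCGGAAG of ETS factors.
Gja5: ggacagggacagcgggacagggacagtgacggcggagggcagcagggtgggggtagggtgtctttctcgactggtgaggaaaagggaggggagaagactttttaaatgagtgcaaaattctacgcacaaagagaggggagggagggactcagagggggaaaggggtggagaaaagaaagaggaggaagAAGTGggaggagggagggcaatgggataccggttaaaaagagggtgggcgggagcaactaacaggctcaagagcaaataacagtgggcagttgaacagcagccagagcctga
Gja1: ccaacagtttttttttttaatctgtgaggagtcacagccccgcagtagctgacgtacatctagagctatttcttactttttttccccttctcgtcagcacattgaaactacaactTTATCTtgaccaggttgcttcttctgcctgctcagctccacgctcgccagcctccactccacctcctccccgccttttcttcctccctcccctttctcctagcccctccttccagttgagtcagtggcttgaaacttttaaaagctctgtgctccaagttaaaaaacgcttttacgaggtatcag
Gja4: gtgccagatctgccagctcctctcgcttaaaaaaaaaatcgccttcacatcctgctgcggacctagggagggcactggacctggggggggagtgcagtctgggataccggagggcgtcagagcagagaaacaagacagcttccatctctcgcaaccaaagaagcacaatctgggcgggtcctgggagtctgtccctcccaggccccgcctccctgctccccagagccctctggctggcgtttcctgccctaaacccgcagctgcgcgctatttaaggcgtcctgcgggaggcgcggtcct
The Gja5 window held 1 AAGTG, 62 bases before the start, a motif found in 46.4% of 32851 promoter windows of this length. The Gja1 window held 1 AGATAA on the minus strand, beginning 135 bases before the start, which 11.2% of windows have. No motif matched in the Gja4 window. GGTGTG was in 19.1% and CCGGAAG in 8.86% of all windows, and none of these 3 windows had either, while the windows of Dsp and Jup held 2 and 1 GGTGTG. Matching letters are a description and not a binding site. The windows differed in base composition, with a GC content of 55.7% for Gja5, 47.7% for Gja1 and 62.0% for Gja4, against a median of 52.7%.

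Gja1, the connexin of working myocardium, showed overlapping groups. WT libraries gave 549.4, 507.3, 538.9 and 547.7 CPM, and Flox-labelled libraries gave 528.6, 544.2, 500.2 and 509.4 CPM, with 1 Flox-labelled value below the WT range. Means were 535.8 ± 19.6 CPM for WT and 520.6 ± 19.7 CPM for Flox-labelled libraries (SD, n = 4 each). The log2 fold change was -0.04 (SE 0.0368, edgeR FDR 0.767), and the 95% interval ran from a change of -8.05% to 2.67%. Gja1 (ENSMUSG00000050953) lies on chromosome 10 from 56377330 to 56402513 of GRCm38, plus strand.

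For the endothelial connexin Gja4, WT libraries gave 29.3, 31.4, 29.9 and 34.1 CPM, and Flox-labelled libraries gave 29.6, 32.3, 29.3 and 31.4 CPM. Means were 31.2 ± 2.13 CPM for WT and 30.6 ± 1.43 CPM for Flox-labelled libraries (SD, n = 4 each). All 4 Flox-labelled values fell within the WT range. Its log2 fold change was -0.02 (SE 0.0547, FDR 0.931), with a 95% interval of -9.45% to 6.72%, and turned to 0.02 without WT library 4. The summed level of 10 pan-endothelial genes was 1385 to 1426 CPM in WT and 1295 to 1397 CPM in Flox-labelled libraries. Of these 10 genes, 8 were below 0 (50.6% of all tested genes were) and 0 passed. At an unadjusted p below 0.05, 5 were lower and 1 higher, against 5.41% and 5.13% of all tested genes. Groups did not overlap for 4, against 6.05% of all tested genes. Pecam1, Cdh5, Kdr and Tie1 had log2 fold changes of -0.09, 0.01, -0.17 and -0.17 (edgeR FDR 0.357, 0.967, 0.069 and 0.121). Esam gave -0.15 (FDR 0.0584), and Emcn went the other way (0.18, FDR 0.358).

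Gjc1 gave 64.4, 67.0, 65.1 and 68.5 CPM for WT, and for Flox-labelled libraries 67.9, 66.1, 61.9 and 66.8 CPM. Means were 66.3 ± 1.88 CPM for WT and 65.7 ± 2.62 CPM for Flox-labelled libraries (SD, n = 4 each). Its groups overlapped, and Flox-labelled library 3 was the lowest of the 8. A log2 fold change of -0.01 (SE 0.0363, FDR 0.948) was found, with a 95% interval of -6.13% to 4.66%. The value was 0.0052 without WT library 4 and 0.015 without Flox-labelled library 3, so no direction can be given. Of 8 smooth muscle and pericyte genes, 6 were below 0 and 0 were called, against 50.6% and 0.526% of all tested genes. At an unadjusted p below 0.05 in edgeR's test, 3 were lower and 1 higher, against 5.41% and 5.13% of all tested genes. Their sums were 1830 to 1921 CPM in WT and 1910 to 1997 CPM in Flox-labelled libraries. Most of the sum was Acta2, with means of 1308 CPM in WT and 1423 CPM in Flox-labelled libraries (log2 fold change 0.12, FDR 0.184). Myh11, Tagln and Cnn1 gave -0.42, -0.10 and 0.02. The mural cell genes Rgs5, Pdgfrb, Notch3 and Kcnj8 gave -0.26, -0.15, -0.06 and -0.24, with unadjusted p of 0.0104, 0.00807, 0.356 and 0.000911 and edgeR FDR of 0.282, 0.254, 0.813 and 0.0867. For Kcnj8 the groups did not overlap, which holds for 6.05% of all tested genes. The part of these genes in the Gjc1 and Gja4 values was not tested.

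Gjd3 was at the limit of detection, with 5 to 21 expected counts per library. WT libraries gave 0.231, 0.397, 0.391 and 0.922 CPM, and Flox-labelled libraries gave 0.253, 0.419, 0.560 and 0.412 CPM. The WT values alone spanned the whole range of the Flox-labelled values, with a CV of 62.0% in WT against a counting error of 30.1%. In the fit without a filter on low counts the log2 fold change of Gjd3 was -0.24 (SE 0.456, edgeR FDR 0.894). In GRCm38, Gja4 (ENSMUSG00000050234) on chromosome 4 from 127311421 to 127314039, Gjc1 (ENSMUSG00000034520) on chromosome 11 from 102799579 to 102819700 and Gjd3 (ENSMUSG00000047197) on chromosome 11 from 98982180 to 98983016 are all on the minus strand.

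Whether Gja5 shifted relative to the other connexins was asked with log2 ratios formed within each library, which do not depend on scaling. The 6 pairs of Gja1, Gja4, Gja5 and Gjc1 were each given a two-sided exact permutation test, for which 4 against 4 libraries allow no p below 0.0286. The Gja5 to Gja1 ratio was -2.27, -1.91, -2.25 and -2.02 in WT and -2.29, -2.40, -2.31 and -2.02 in Flox-labelled libraries. Flox-labelled library 4 again fell among the WT values, and the difference of -0.14 lay within the spread between libraries (exact p = 0.171, adjusted 0.343). It was -0.073 without WT library 2 and -0.22 without Flox-labelled library 4. Against Gjc1, the Gja5 ratio was 0.90 ± 0.110 (SD, n = 4) in WT and 0.73 ± 0.123 (SD, n = 4) in Flox-labelled libraries, a difference of -0.17 (exact p = 0.0857, adjusted 0.343). The difference against Gja4 was -0.16 (exact p = 0.143, adjusted 0.343). It reached -0.22 without Flox-labelled library 4 (exact p = 0.0286, the smallest that 3 against 4 libraries allow). The 3 ratios that do not involve Gja5 differed by 0.02 (Gja4 to Gja1), 0.03 (Gjc1 to Gja1) and -0.01 (Gja4 to Gjc1), with exact p of 0.8286, 0.600 and 0.857, adjusted 0.857 in each case.

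**Figure D3:**
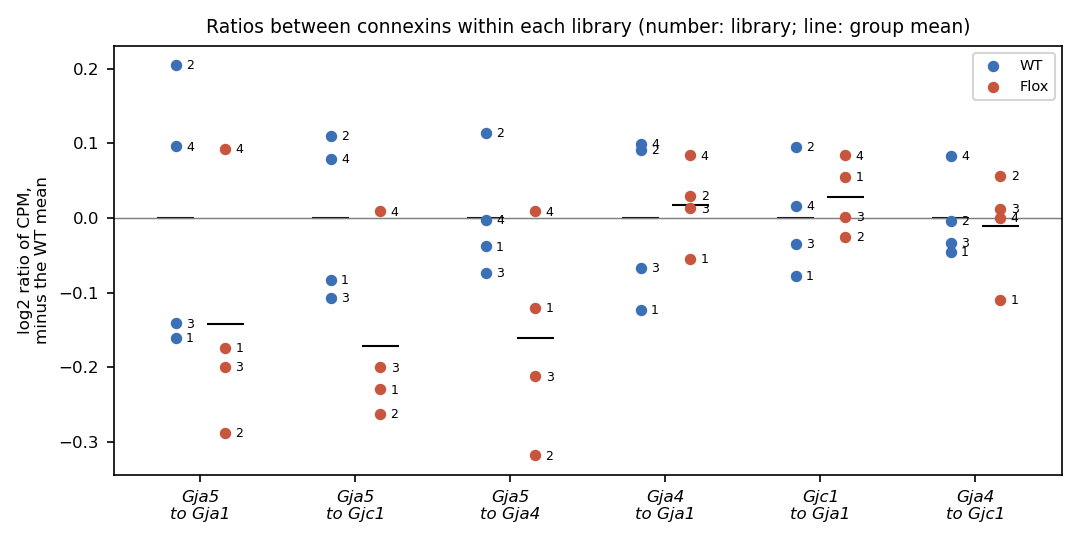
Log2 ratio of CPM between pairs of connexins within each library, minus the WT mean of that pair (vertical axis), for WT (blue) and Flox-labelled (red) libraries, where numbers give the library and short lines the group means. In the 3 ratios with Gja5, Flox-labelled libraries 1 to 3 lie below library 4 and the group means differ by -0.14 to -0.17, while the other 3 differ by -0.01 to 0.03.

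Levels of different genes were compared per kilobase (kb), since longer transcripts give more reads. Over all annotated exonic bases, WT levels ran in the order Dsp (103 CPM per kb), Cdh2 (73.7), Gja1 (52.2), Pkp2 (38.8), Jup (32.3), Tjp1 (26.4), Gja5 (21.7), Gja4 (18.5), Gjc1 (13.2) and Gjd3 (0.580). Only Gja5 and Gja4 overlapped between neighbours in this order, with Gja5 between 17.6 and 23.6 and Gja4 between 17.4 and 20.2 CPM per kb over the 8 libraries. By this measure Gja1 made up 49.2% ± 2.29 of the summed level of the 5 connexins in WT and 49.9% ± 1.497 in Flox-labelled libraries (SD, n = 4), and Gja5 made up 20.4% ± 1.61 and 18.8% ± 1.62. Both the order and these shares depend on the length used, and the shares were taken over exonic bases only. Gja1 has 10257 annotated exonic bases but a longest transcript of 3889 bases, and per kb of the longest transcript it stood highest, at 138 CPM per kb in WT, with Cdh2 at 123 and Dsp at 104, although Gja1 and Cdh2 overlapped over the 8 libraries. Gja5 was then at 33.9, Gjc1 at 19.4 and Gja4 at 18.5 CPM per kb, so Gjc1 and Gja4 changed places, and these overlapped too, as did Gja5 and Tjp1 (29.3). Gjd3 was lowest by either length.

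**Figure D4:**
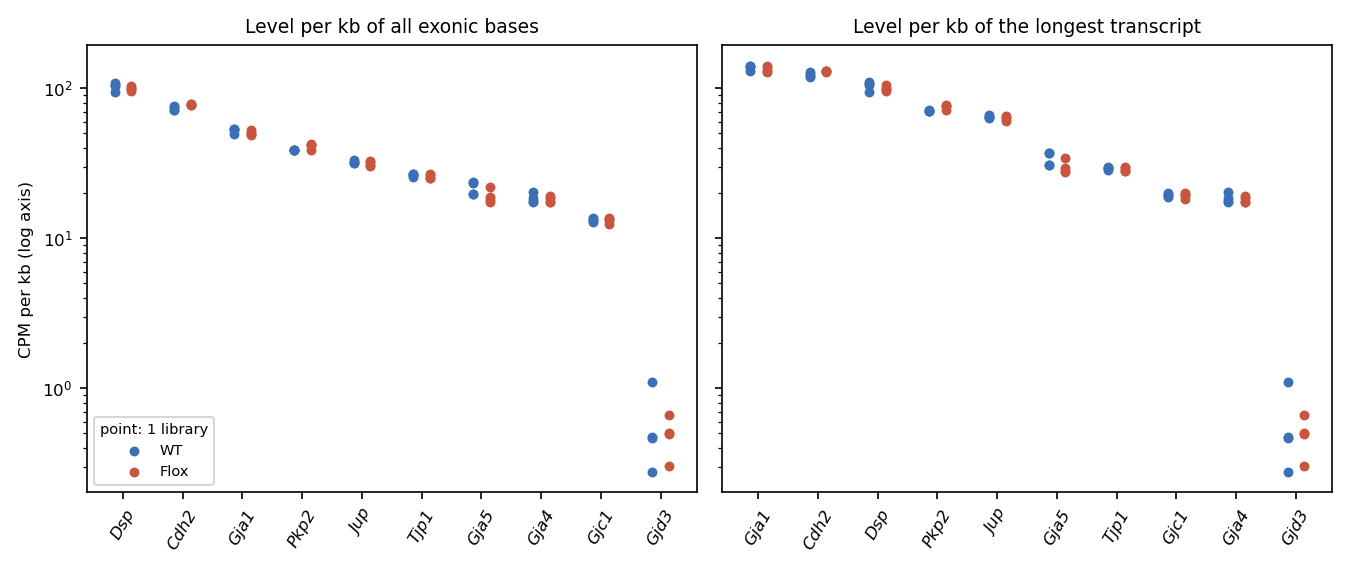
Level of the 10 genes in CPM per kb (log axis), per kb of all exonic bases (left) and of the longest transcript (right), with 1 point per library, WT in blue and Flox-labelled in red, ordered by the WT mean. Gja1 stands below Dsp and Cdh2 on the left (52.2 in WT) and at the top on the right (138 in WT), and Gjd3 lies far below the others in both.

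Among the disc partners, Cdh2 and Pkp2 were the members whose groups did not overlap, which holds for 6.05% of all tested genes. Cdh2, the adherens junction cadherin, had WT values of 582.6, 619.6, 574.0 and 603.2 CPM and Flox-labelled values of 633.7, 626.5, 630.2 and 627.5 CPM. All Flox-labelled values were above all WT values, by little. Means were 594.9 ± 20.5 CPM for WT and 629.5 ± 3.22 CPM for Flox-labelled libraries (SD, n = 4 each), a log2 fold change of 0.08 (SE 0.0308, unadjusted p = 0.0203, edgeR FDR 0.357).

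Pkp2, the desmosomal armadillo protein, had WT values of 207.5, 207.9, 208.9 and 208.4 CPM and Flox-labelled values of 223.7, 223.1, 227.4 and 209.4 CPM. Flox-labelled library 4 barely exceeded the highest WT value. Means were 208.2 ± 0.620 CPM for WT and 220.9 ± 7.91 CPM for Flox-labelled libraries (SD, n = 4 each), and the log2 fold change was 0.09 (SE 0.0326, unadjusted p = 0.0211, FDR 0.362). The CV of Pkp2 in WT (0.298%) was smaller than the counting error alone (1.46%), as was that of Cdh2 in Flox-labelled libraries (0.512%). In the fit that includes the Y-linked level, neither gene had an unadjusted p below 0.05.

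Dsp, Jup and Tjp1 overlapped between the groups. Dsp, which anchors desmosomes to intermediate filaments, had WT values of 1019, 912.7, 1051 and 1004 CPM and Flox-labelled values of 967.1, 953.4, 1005 and 920.5 CPM, a log2 fold change of -0.05 (SE 0.0425, FDR 0.738). Jup, shared by desmosomes and adherens junctions, had WT values of 204.8, 207.5, 214.2 and 205.6 CPM and Flox-labelled values of 207.7, 210.2, 199.4 and 195.2 CPM (-0.03, SE 0.0338, FDR 0.802). Tjp1 had WT values of 207.1, 200.3, 208.1 and 210.3 CPM and Flox-labelled values of 198.4, 197.3, 209.2 and 206.6 CPM (-0.03, SE 0.0326, FDR 0.859). The 95% intervals ran from -9.50% to 2.82% for Dsp, from -7.16% to 2.76% for Jup and from -6.43% to 3.20% for Tjp1. Dsp shares 499 exonic bases with Gm10129 on the opposite strand, and its expected counts were not whole in any library. The partners lie apart in GRCm38, with Tjp1 (ENSMUSG00000030516) on chromosome 7 from 65296165 to 65527781, Cdh2 (ENSMUSG00000024304) on chromosome 18 from 16588877 to 16809246, Dsp (ENSMUSG00000054889) on chromosome 13 from 38151294 to 38198577, Pkp2 (ENSMUSG00000041957) on chromosome 16 from 16213318 to 16272712 and Jup (ENSMUSG00000001552) on chromosome 11 from 100368958 to 100397763.

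The other connexins and pannexins, the latter being channel proteins of a related fold, were mostly at very low counts. Of 18 such genes, 4 passed the filter, and Gjb6 had no count in any of the 8 libraries. Gja3 (connexin 46, best known from the lens) was the most abundant of them, with WT values of 38.8, 37.8, 38.2 and 37.5 CPM and Flox-labelled values of 43.5, 43.5, 40.6 and 39.6 CPM. All its Flox-labelled values were above the WT values (groups did not overlap for 6.05% of all tested genes). Its log2 fold change of 0.14 (SE 0.0406, unadjusted p = 0.00493, FDR 0.197) did not pass, and the fit that includes the Y-linked level gave an FDR of 0.530. Per kb of exonic bases Gja3 stood at 12.8 ± 0.189 CPM per kb in WT (SD, n = 4), near Gjc1. Panx1 (0.06, FDR 0.851) and Panx2 (0.14, FDR 0.728) did not pass either.

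Of 22 other intercalated disc genes, 22 were tested and 0 were called, against 0.526% of all tested genes. At an unadjusted p below 0.05, 5 differed, all higher in Flox-labelled libraries. Of all tested genes, 5.13% were higher and 5.41% lower at that level. The median log2 fold change of the 22 was 0.03, with 16 above 0 and 6 below 0 (50.6% of all tested genes were below 0). Among the smallest p-values were those of Des (desmin, the muscle intermediate filament, 0.10, FDR 0.218), Nectin2 (an adhesion receptor, 0.10, FDR 0.277) and Nrap (an actin anchor of the disc, 0.14, FDR 0.379). Des was at 671 to 690 CPM in WT and at 705 to 744 CPM in Flox-labelled libraries, without overlap. Groups did not overlap for 3 of the 22, against 6.05% of all tested genes. Des, Nectin2 and Nrap share exonic bases with genes on the opposite strand (5.86%, 3.86% and, with Habp2, 4.87% of their own). Nrap was the highest of the list by fold change and Dsc2, a desmosomal cadherin, the lowest (-0.10, FDR 0.585). Of the 8 ventricular cardiomyocyte markers 0 were called and 6 were above 0 (of all tested genes, 0.526% were called and 50.6% were below 0). Their summed level was 35330 to 39560 CPM in WT and 34900 to 40880 CPM in Flox-labelled libraries. Myl2, Myh7, Tnnt2 and Actn2 had log2 fold changes of 0.02, 0.06, -0.02 and 0.04. The part of that sum in the disc differences was not tested. None of 8 fibroblast and valve, 6 epicardial, 7 erythroid and 6 macrophage markers passed edgeR's test, against 0.526% of all tested genes. At an unadjusted p below 0.05, 0, 1, 0 and 0 were higher and 1, 0, 0 and 0 lower. Of all tested genes, 5.13% and 5.41% were. The median log2 fold changes of these lists were -0.10, 0.10, 0.11 and 0.03.

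Among 10 genes listed as connexin regulators, 1 was called higher and 1 lower, against 0.312% and 0.214% of all tested genes. Nkx2-5, a homeobox factor of the myocardium, had WT values of 101.0, 96.4, 92.2 and 98.1 CPM. Its Flox-labelled values of 111.2, 110.9, 115.6 and 111.8 CPM did not overlap these, which holds for 6.05% of all tested genes. It rose by a log2 fold change of 0.21 (SE 0.0334, FDR 0.0194). It was called in 15 of 19 alternatives, and not in the fit that includes the Y-linked level (FDR 0.0851), nor without WT library 2 (0.0688), WT library 3 (0.0632) or Flox-labelled library 3 (0.0862). Etv1, an ETS factor of trabeculae and conduction tissue, fell from 35.2 to 41.0 CPM in WT to between 29.6 and 33.9 CPM in Flox-labelled libraries, a log2 fold change of -0.32 (SE 0.0574, FDR 0.0373), and was called in 11 of 19 alternatives. Its FDR was 0.136 in the fit that includes the Y-linked level and 0.0577 with the replicate number as a block. It was also not called without WT library 1 (0.0887), 2 (0.0973) or 3 (0.111) or without Flox-labelled library 1 (0.107), 2 (0.0723) or 3 (0.138). The remaining 8 did not pass. Tbx5, a T-box activator of Gja5, had a log2 fold change of -0.16 (SE 0.0541, FDR 0.277), and Irx3, a homeobox factor of the ventricular conduction system, of -0.19 (SE 0.0700, FDR 0.331).

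**Figure D5:**
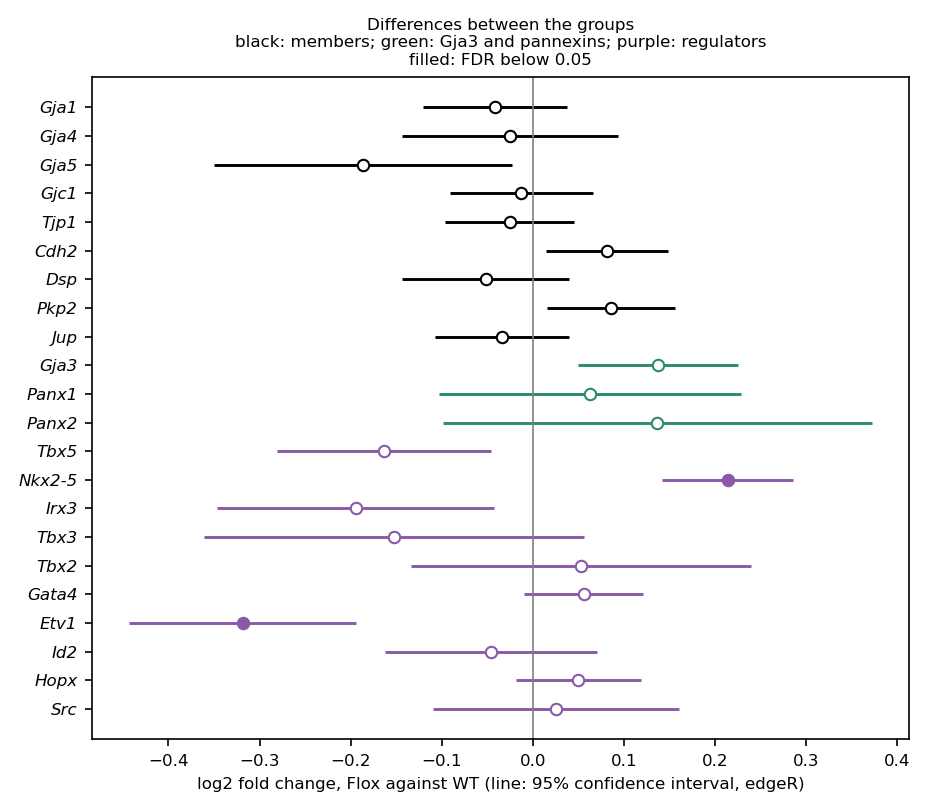
Log2 fold change of Flox-labelled against WT libraries (horizontal axis, lines are 95% confidence intervals) for the 9 tested members (black), Gja3, Panx1 and Panx2 (green) and regulators (purple). Filled points have FDR below 0.05. Nkx2-5 (0.21) and Etv1 (-0.32) are filled, and the interval of Gja5 (-0.35 to -0.02) reaches furthest below 0 among the members.

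The genes most alike each connexin over the 8 libraries were taken by Pearson's r of log2 CPM, from 10431 ranked genes, of which the top values are high by selection. For Gja5 they were Arhgef28 (r = 0.966), Neo1 (0.964) and Pomt1 (0.963), with log2 fold changes between the groups of -0.11, -0.03 and -0.05. For Gja1 they were Snx25 (0.943), Smyd1 (0.940) and Mt3 (0.932), and for Gja4 Hbp1 (0.964), Coq4 (0.933) and Tspan31 (0.919). Rmc1 (0.971), Mfsd11 (0.970) and Ip6k1 (0.969) were most alike Gjc1. None of these genes passed FDR 0.05 in edgeR's test.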

How the data were processed

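Polyadenylated RNA of heart ventricles was made into directional libraries and read as single reads, per the labels. The deposited values are expected counts that RSEM estimated for each Ensembl gene, which divide a read that matches several genes between them. The submitters' processing notes name cutadapt, RSEM 1.3.1 and GRCm38, and the table's name gives Ensembl release 91. The aligner and the strand setting are not given in the sources used here. Of the values, 18.1% were not whole numbers, and all were rounded.

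Symbols, positions and exonic lengths came from GENCODE release M21 on GRCm38, which matched 53360 of 53465 identifiers. Genes were filtered with filterByExpr, which left 15388, scaled with TMM factors and tested by quasi-likelihood in edgeR 4.0.16 (group as the only term, two-sided, R 4.3.3), and p-values were adjusted over every tested gene (Benjamini-Hochberg). CPM were taken on TMM-scaled library sizes. SE came from the F statistic and 95% intervals from its degrees of freedom. Counting errors are Poisson errors of the mean count and cover counting error only.

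The alternatives changed the test (DESeq2 1.42.0, limma voom 3.58.1, likelihood ratio), the scaling (totals, RLE, upper quartile) or the filter (none, or 1 CPM in 4 libraries), or used each library left out, the replicate number as a block and the Y-linked level as a covariate. Leaving out both libraries numbered 4 was chosen after seeing the data. Figures used matplotlib 3.10.9. The members and lists were chosen with earlier results of these data known. Named were the 10 members, Nrg1, filtered-in genes of the connexin family, called genes of each list, the smallest p-values (4 disc genes, 3 regulators) and extremes, the markers written first in a list, and the 3 genes most alike each of 4 connexins (mean log2 CPM of at least 3). Some genes that this rule names are not reported here.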

Additional observations from a re-analysis of the deposited data

How the results depend on the processing

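The 9 tested members were refitted under 19 alternatives. The number of members called was 0 in each of them and at FDR 0.01 and 0.1, except that it was 1 without a filter on low counts, where Gja5 passed (-0.19, FDR 0.0471), and the cause was not tested. Leaving out 1 library gave 0 to 0 members called. Gja1, Gja5, Cdh2, Dsp, Pkp2 and Jup kept their direction in all 19. With the Y-linked covariate Gjc1 was at 0.0027 and Tjp1 at 0.0055, both reversed and near 0, and without both libraries numbered 4 Gja4 was at 0.011. Leaving out 1 library gave -0.053 to 0.023 for Gja4, -0.028 to 0.015 for Gjc1 and -0.26 to -0.14 for Gja5. For the ratios it gave -0.22 to -0.073 for Gja5 to Gja1, -0.23 to -0.13 for Gja5 to Gjc1, 0.0033 to 0.061 for Gjc1 to Gja1, -0.22 to -0.11 for Gja5 to Gja4, -0.023 to 0.051 for Gja4 to Gja1 and -0.033 to 0.022 for Gja4 to Gjc1, and the pseudocount of 1 CPM changed no direction.

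Labels number replicates alike in both groups. Deviations from group means correlated across genes at 0.0447 to 0.121 for same-numbered and -0.0877 to 0.0195 for other pairs. Every same-numbered pair was thus above every other pair. The main fit assumed no pairing, because not all same-numbered pairs reached the 0.1 required. Its p-values and the exact permutation p-values therefore leave out anything that same-numbered libraries share, and what they share was not tested. Under a replicate block 93 genes passed instead of 81, 0 members passed, and Gja5 had a log2 fold change of -0.185 (FDR 0.150). With that block the Gja5 to Gja1 ratio differed by -0.14, with an exact sign-flip p of 0.125, the smallest that 4 pairs allow. Of 38 groups of 4 values examined for a library far from the other 3, none stood out. Over all genes, calls numbered 338 without a filter, 242 by the likelihood ratio test, 195 by DESeq2, 57 by limma voom, 16 with the Y-linked covariate and 11 to 142 when 1 library was left out (fewest without Flox-labelled library 3, most without Flox-labelled library 4). Gjd3, with 5 to 21 expected counts, was tested only without the filter.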
